A study of Bos taurus and Bos indicus with 3 samples.

Results

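The 9 chemokine receptor genes of blood leukocytes were looked up by gene symbol, by an older symbol or by the bovine entry name of the protein database, and 7 of the 9 were found among the 25968 gene models of the table. These were CXCR2, CXCR3, CXCR4, CCR2, CCR6, CCR7 and CX3CR1, each on 1 model. No model with a single gene name was named CXCR5 or CCR1, and these genes were not analysed here. Models naming several genes were not matched. The 7 receptors were measured in leukocyte mRNA from 2 taurine breeds, Holstein and Jersey, and from the indicine breed Cholistani. Each pool combined equal volumes of blood, from 40 cows for Holstein, 7 for Jersey and 45 for Cholistani, and 1 library without replicates represents each breed. No treatment was described, and the age of the cows was not given in the sources used here. The Holstein and Jersey cows were kept on university farms in Wisconsin and the Cholistani cows on a farm in Punjab, Pakistan, and the RNA of the Cholistani pool alone travelled in a dry storage matrix. Breed, farm and RNA transport cannot be told apart in this design.

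Chemokines are small secreted proteins that guide leukocytes through blood, lymph and tissue. Their receptors span the cell membrane, couple to inhibitory G proteins and make the cell move toward the source of the ligand. The set of receptors differs between cell types, which is how neutrophils, monocytes, naive lymphocytes and effector T cells come to different places. The cell types named below for each receptor are known mostly from human and mouse.

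Expression is given in FPKM, fragments per kilobase of exon, which the authors scaled between libraries by upper-quartile normalization. As a value per transcript length, FPKM allows the level of one gene to be set beside that of another. How many fragments underlie each value is unknown, which leaves no counting interval to give. Fold changes were log2 ratios of FPKM + 1, and a difference of at least 2-fold on this scale was counted as higher or lower. With 1 library per breed no test between breeds was possible. Over all models the FPKM came to 5949765 for Holstein, 6288105 for Jersey and 9525773 for Cholistani, and the 3 libraries had 13409 to 13783 models above 0. After scaling all libraries to equal sums, the median log2 ratio of the 15284 models above 0 moved from 0.15 to -0.43 between Cholistani and Holstein and from 0.12 to -0.41 between Cholistani and Jersey. The authors' normalization does not set these sums equal, and scaling to equal sums replaces it with another scale. Which scale fits the Cholistani library is therefore uncertain.

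The Cholistani library stood apart in 3 of the 7 receptors. CXCR2 and CXCR4 were higher and CCR2 was lower in it than in both taurine libraries, whereas CCR6, CCR7, CXCR3 and CX3CR1 stayed within 2-fold of them. Between Cholistani and Holstein, 2 of 7 receptors were at least 2-fold higher and 1 was lower, beside 19.7% of all 15284 models higher and 13.7% lower. Against Jersey, 2 were again higher and 1 lower, beside 17.2% and 14.2% of all models. For a set of 7, these counts are near the shares of all models and do not set the receptors apart from them. Both comparisons use the same Cholistani library. Between Jersey and Holstein 0 receptors were higher and 1, CXCR2, was lower, beside 7.99% and 4.70% of all models. The median log2 ratio of the 7 receptors was -0.29 between Cholistani and Holstein, 0.18 between Cholistani and Jersey and -0.34 between Jersey and Holstein, and that of all models 0.15, 0.12 and 0.00. At equal FPKM sums the receptors' median was -0.97 between Cholistani and Holstein, and it changed sign between Cholistani and Jersey, to -0.42. Among the 5726 models whose mean level lay within the range of the receptors, 13.8% were higher and 5.06% lower between Cholistani and Holstein.

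**Figure D1:**
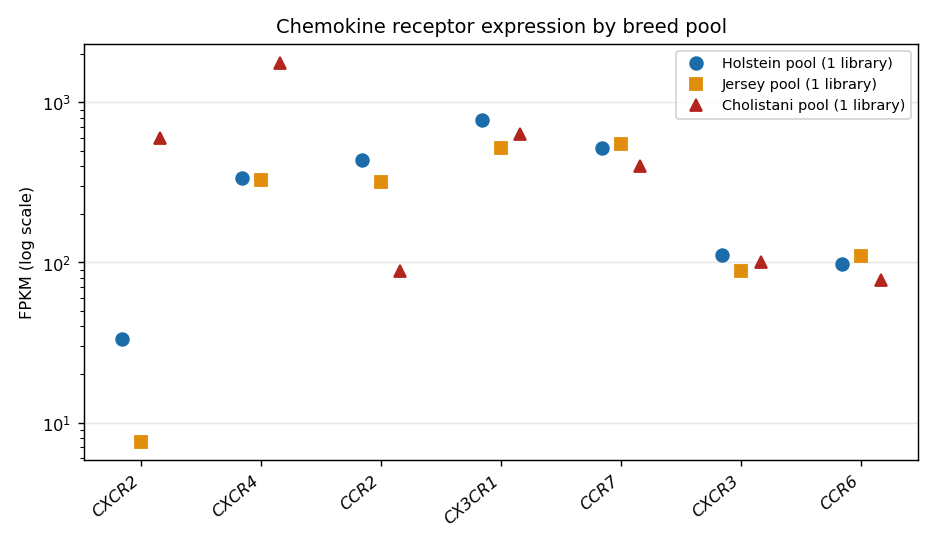
FPKM (log scale) of the 7 matched chemokine receptors in the Holstein (circles), Jersey (squares) and Cholistani (triangles) pools, 1 point per library and no error bars because there are no replicates. The Cholistani point lies far above both taurine points for CXCR2 and CXCR4 and below both for CCR2, while the 3 points lie close together for the other 4 receptors.

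CXCR2 is the receptor by which neutrophils follow interleukin 8 and related chemokines. The study also chose this gene, under its older name IL8RB, for a real-time PCR assay on the same RNA of Holstein and Cholistani, and the primers of that assay, given 5′ to 3′, are shown as the sequences of a second measurement of the gene. They were not placed on any gene model. The forward primer has 23 bases, 8 of them G or C, and the reverse primer has 18 bases, 8 of them G or C.
CXCR2 (IL8RB) forward: gaagttctgatttgtagcatttg
CXCR2 (IL8RB) reverse: aacaccaccatccttgaa

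The model named CXCR2 lies on chromosome 2 of btau4.0 from 110616093 to 110617795, a span of 1703 bases. It had 33.5 FPKM in the Holstein pool, 7.62 in the Jersey pool and 598 in the Cholistani pool, the widest range of the 7 receptors. It was the least abundant of them in both taurine libraries and stood behind CXCR4 and CX3CR1 in Cholistani. The Cholistani value was 17.9 times that of Holstein (log2 ratio of FPKM + 1, 4.12) and 78.5 times that of Jersey (6.12), a ratio that rests on the low Jersey value. Holstein had 4.40 times the Jersey value (log2 ratio of Jersey to Holstein -2.00). Its level exceeded that of 36.0% of models in Holstein, 15.7% in Jersey and 88.1% in Cholistani. Because the study picked CXCR2 for its assay from these libraries, its direction is not independent evidence. For every gene it assayed, the paper reports that real-time PCR and sequencing matched. That assay measured the same Holstein and Cholistani RNA again and did not include Jersey.

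The name of this model is less certain than its value. Cattle have 2 closely related interleukin 8 receptor genes, CXCR1 and CXCR2, side by side. The RefSeq gene table of the assembly ARS-UCD2.0 orders the protein coding genes as RUFY4, CXCR2, CXCR1 and ARPC2, and lists CXCR2 and IL8RB among the older names of CXCR1. In the deposited table the model named CXCR2 is the last named one before ARPC2, and a model known only by the protein accession A6YM52 lies on its far side, from 110585977 to 110595148, with 20944 bases between them. No model with a single gene name was named CXCR1. Which of the pair each model stands for was not tested, and reads shared by the paralogs may have been split between the models by the authors' counting, which kept reads with several locations. The A6YM52 model had 91.4 FPKM in the Holstein pool, 50.2 in the Jersey pool and 770.2 in the Cholistani pool, and so followed the same order of breeds. Its Cholistani value was 8.43 times that of Holstein and 15.3 times that of Jersey, and its log2 ratio of Jersey to Holstein was -0.85, within 2-fold. Taken in place of the CXCR2 model, it left the counts against Cholistani as they were and reduced the receptors lower in Jersey than in Holstein from 1 to 0. ARPC2, an actin-related gene on the other side of the CXCR2 model, had 4730 FPKM in the Holstein pool, 5007 in the Jersey pool and 7391 in the Cholistani pool (1.56 times Holstein).

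**Figure D2:**
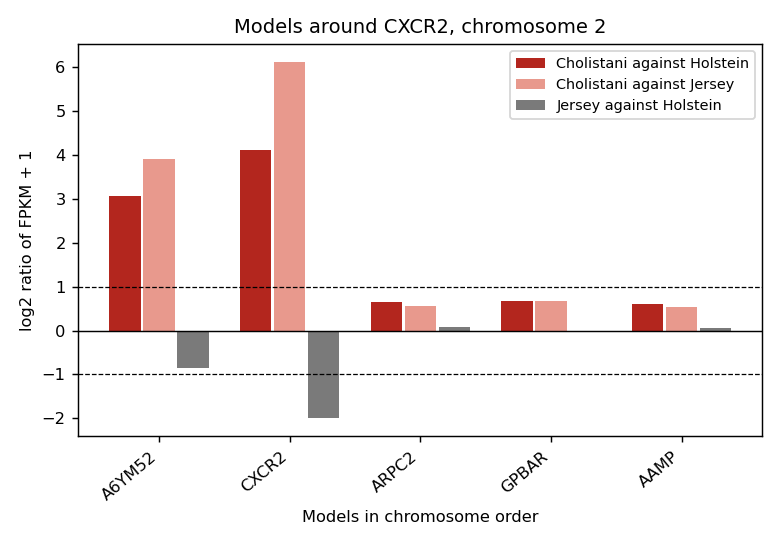
Log2 ratios of FPKM + 1 (bars, from 0) for named or accession models above 0 in all 3 libraries around CXCR2 on chromosome 2, in chromosome order and not to distance; dark red is Cholistani against Holstein, light red Cholistani against Jersey, grey Jersey against Holstein, and dashed lines mark 2-fold. CXCR2 and A6YM52 are both far above the upper line in Cholistani, while ARPC2, GPBAR and AAMP stay below it.

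CXCR4 holds leukocytes in bone marrow and lymphoid tissue along CXCL12, and is carried by nearly all leukocytes. It lies on chromosome 2 from 64215942 to 64219655. It had 339 FPKM in the Holstein pool, 326 in the Jersey pool and 1763 in the Cholistani pool. The taurine values nearly coincided, and the Cholistani value was 5.21 times Holstein (log2 ratio 2.38) and 5.41 times Jersey (2.43). CXCR4 was thereby the most abundant of the 7 receptors in Cholistani, with 48.1% of their summed FPKM, against 14.7% in Holstein and 17.0% in Jersey, where CX3CR1 and CCR7 were above it. The nearest named models beyond it, the aspartyl tRNA synthetase model SYDC (319, 347 and 347 FPKM in the Holstein, Jersey and Cholistani pools) and the replication gene MCM6 (212, 160.0 and 236 FPKM), stayed within 2-fold between Cholistani and both taurine libraries.

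CCR2 and CX3CR1 are the receptors that separate classes of monocytes. CCR2 answers to CCL2 and brings monocytes out of the marrow into inflamed tissue, and CX3CR1 binds fractalkine (CX3CL1) on the vessel wall and is found on patrolling monocytes and cytotoxic lymphocytes. CCR2, on chromosome 22 from 54404364 to 54405374, had 434 FPKM in the Holstein pool, 316 in the Jersey pool and 88.5 in the Cholistani pool. It was 4.91 times higher in Holstein (log2 ratio of Cholistani to Holstein -2.28) and 3.57 times higher in Jersey (-1.82) than in Cholistani, and the taurine libraries differed by less than 2-fold (-0.46). The span of its model is 1011 bases, a multiple of 3, while that of CXCR2 is not. CX3CR1, on chromosome 22 within 12533523 to 12784981, had 775 FPKM in the Holstein pool, 516 in the Jersey pool and 634 in the Cholistani pool. This span is shared with the models of WDR48, TTC21A and the accession A5D965, so the position of CX3CR1 inside it is not resolved, and the strand of the models is not listed. Cholistani lay between the taurine libraries, with log2 ratios of -0.29 to Holstein and 0.30 to Jersey, and the latter turned to -0.30 at equal FPKM sums. The ratio of CX3CR1 to CCR2 was 1.78 in Holstein, 1.63 in Jersey and 7.16 in Cholistani, and this ratio within a library does not depend on the scale.

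Downstream of CCR2 on chromosome 22 the next named model, with the accession Q6PVY4 only, begins 89747 bases beyond it and had 546 FPKM in the Holstein pool, 483 in the Jersey pool and 188 in the Cholistani pool (log2 ratios of Cholistani -1.53 to Holstein and -1.36 to Jersey). The model after it, Q0V8J0, did not share this direction, with 45.1, 46.0 and 115 FPKM in the same order of libraries. RefSeq places CCR3 and CCR1 between CCR2 and FYCO1, but the models there carry accessions only, and none was taken for CCR1.

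CCR7 leads naive lymphocytes and mature dendritic cells into lymph nodes along CCL19 and CCL21. It lies on chromosome 19 from 42039102 to 42050255 and had 518 FPKM in the Holstein pool, 549.9 in the Jersey pool and 401 in the Cholistani pool. The Cholistani value was the lowest, with log2 ratios of -0.37 to Holstein and -0.45 to Jersey, within 2-fold. At equal FPKM sums these became -1.04 and -1.05, just past it. CCR7 was the most abundant of the 7 receptors in Jersey, stood behind CX3CR1 in Holstein and stood behind CXCR4, CX3CR1 and CXCR2 in Cholistani. The order of neighbouring levels, such as CCR7 and CX3CR1 in Jersey (549.9 and 516 FPKM), has no replicate check.

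CXCR3 and CCR6 mark effector and memory lymphocytes. CXCR3 follows the interferon-induced chemokines CXCL9, CXCL10 and CXCL11 and is typical of T helper 1 and natural killer cells, and CCR6 follows CCL20 and is typical of B cells and T helper 17 cells. CXCR3, on chromosome X from 48706193 to 48708993, had 112 FPKM in the Holstein pool, 88.6 in the Jersey pool and 100.2 in the Cholistani pool. These 3 values were the closest of any receptor, the outermost of them differing by 0.34 on the log2 scale. CCR6, on chromosome 9 within 105727338 to 105815005, a span shared with the model FR1OP, had 97.5 FPKM in the Holstein pool, 110.3 in the Jersey pool and 78.1 in the Cholistani pool. Its log2 ratios of Cholistani were -0.32 to Holstein and -0.49 to Jersey, and the latter became -1.08 at equal FPKM sums. The ratio of CCR7 to CCR6, 5.31 in Holstein, 4.99 in Jersey and 5.14 in Cholistani, was nearly the same in all libraries.

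**Figure D3:**
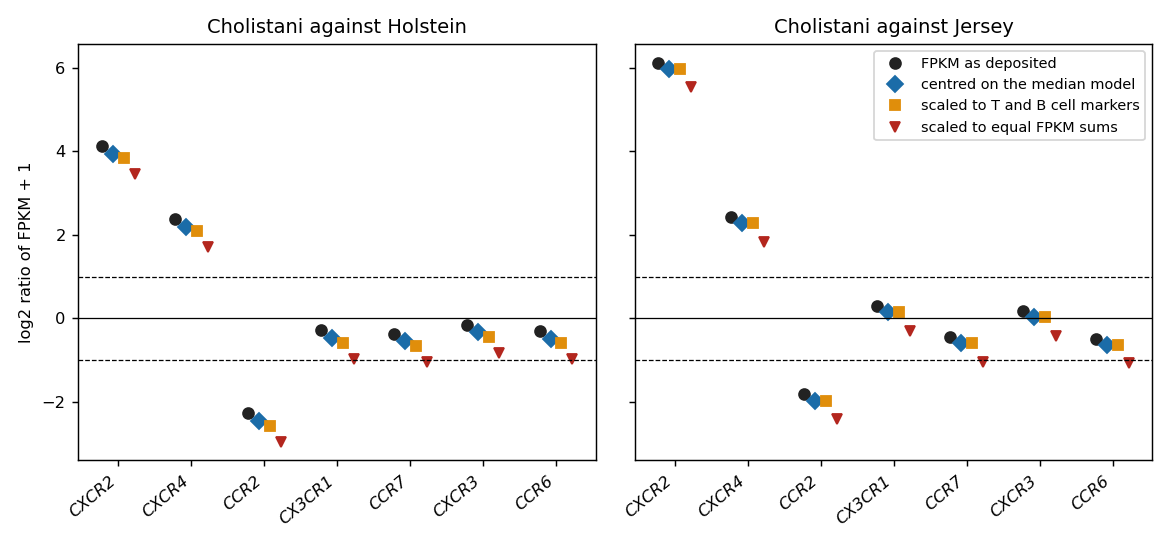
Log2 ratios of FPKM + 1 for the 7 receptors, Cholistani against Holstein (left) and against Jersey (right), from the deposited FPKM (circles), centred on the median of models with at least 10 FPKM (diamonds), scaled to 15 T and B cell markers (squares) and scaled to equal FPKM sums (triangles); dashed lines mark 2-fold. CXCR2 and CXCR4 stay above the upper line and CCR2 below the lower line on all 4 scales, and CCR7 and, against Jersey, CCR6 cross the lower line at equal sums only.

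The balance among the 7 receptors thus differed between the libraries. CX3CR1, CCR7 and CCR2 led in Holstein with 33.6%, 22.4% and 18.8% of the summed FPKM of the 7 genes, and in Jersey CCR7 and CX3CR1 led with 28.7% and 26.9%. In Cholistani CXCR4 led, followed by CX3CR1 with 17.3% and CXCR2 with 16.3%, and CCR2 held 2.42%. CXCR2 held 1.45% in Holstein and 0.398% in Jersey. The ratio of CXCR2 to CCR2 was 0.0771 in Holstein, 0.0241 in Jersey and 6.76 in Cholistani.

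**Figure D4:**
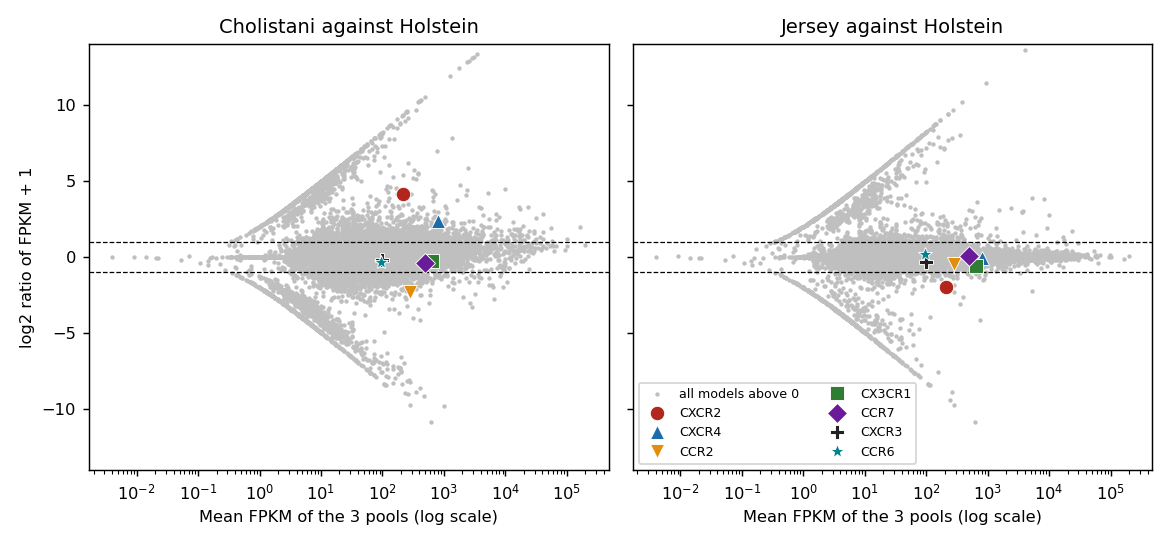
Log2 ratio of FPKM + 1 against mean FPKM of the 3 pools (log scale) for all 15284 models above 0 (grey) and the 7 receptors (coloured symbols), Cholistani against Holstein on the left and Jersey against Holstein on the right; dashed lines mark 2-fold. On the left CXCR2 and CXCR4 lie above the upper line and CCR2 below the lower one, and on the right all receptors but CXCR2 lie between the lines.

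The ligands of these receptors were described beside them, from a list of 26 ligands of which 14 were matched to a model and 12 were above 0 in some library. In the Cholistani library 10 of the 12 were at least 2-fold higher than in Holstein and 0 were lower (median log2 ratio 2.68), and the same 10 were higher than in Jersey (median 3.54). These counts include CCL2, CCL8 and CCL20, listed at 0 in both taurine libraries. Of all models 19.7% were higher and 13.7% lower against Holstein, and 17.2% higher and 14.2% lower against Jersey. Over the 9 ligands above 0 in both Cholistani and Holstein the median was 2.20, and over the 8 above 0 in both Cholistani and Jersey it was 1.54. At equal FPKM sums 8 ligands were higher and 2 lower against Holstein, and 7 higher and 2 lower against Jersey. The shares of all models were then 11.6% higher and 27.5% lower against Holstein, and 10.4% and 26.2% against Jersey. CXCL8 and CCL16 were then within 2-fold of both taurine libraries and MIF of Jersey, while CXCL6 and PPBP were lower than in both. Between Jersey and Holstein 0 ligands were higher and 1, CXCL3, was lower, beside 7.99% and 4.70% of all models.

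Of the ligands of CXCR2, CXCL3 had 16.9 FPKM in Holstein, was listed at 0 in Jersey and had 2260 FPKM in Cholistani, the largest log2 ratio of Cholistani to Holstein in the list (6.98). CXCL8 (interleukin 8) had 341, 522 and 1068 FPKM in the Holstein, Jersey and Cholistani pools. PPBP, a chemokine stored in platelets, had 821, 939 and 621 FPKM and CXCL6 had 55.0, 58.4 and 31.7 FPKM, both within 2-fold in Cholistani on the deposited scale. The ligands of CXCR2 thus did not all follow the receptor. CXCL12, the main ligand of CXCR4, was not matched, and MIF, a cytokine that also binds CXCR4, had 424, 691 and 1956 FPKM.

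CCL2, the main ligand of CCR2, was listed at 0 in Holstein and Jersey and had 13.6 FPKM in Cholistani, where the receptor was lowest. CCL8, a related chemokine on 2 models, was also listed at 0 in both taurine libraries and had 49.4 FPKM in Cholistani on the more abundant one. CCL5, which attracts T cells and monocytes through CCR1 and other receptors, had the highest mean of the ligands, with 1562 FPKM in the Holstein pool, 876 in the Jersey pool and 10663 in the Cholistani pool, although PPBP was above it in Jersey. CCL3 had 201, 108 and 1218 FPKM, and the related CCL4 had 85.3, 54.5 and 1811 FPKM. Both are listed on the same span of chromosome 19, so the position of each inside it is not resolved. CCL20, the ligand of CCR6, was listed at 0 in both taurine libraries and had 34.4 FPKM in Cholistani. The ligand of CX3CR1, CX3CL1, and CXCL9 of CXCR3 were listed at 0 in all 3 libraries (CXCL6, CXCL8, CCL16, CXCL9, CX3CL1, CCL2, CCL3 and CCL4 were named after their values were seen).

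**Figure D5:**
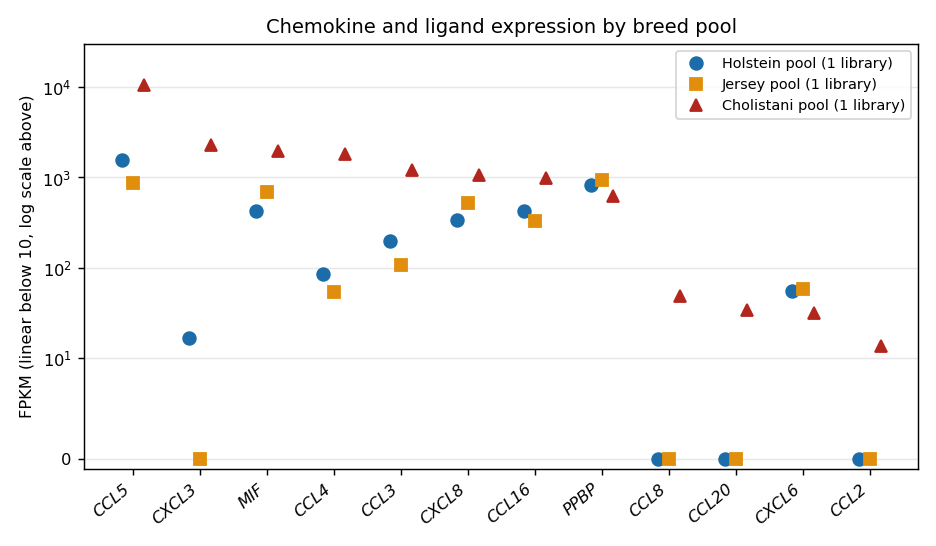
FPKM of the 12 ligands above 0 in at least 1 pool (linear below 10, log scale above), in the Holstein (circles), Jersey (squares) and Cholistani (triangles) pools, 1 point per library. The Cholistani point is the highest for all but PPBP and CXCL6, and CCL8, CCL20 and CCL2 sit at 0 in both taurine pools.

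The other chemoattractant receptors were mostly within 2-fold on the deposited scale. Of 14 other chemokine receptors 4 were matched and 2 had values above 0. Among them was XCR1, the receptor of cross-presenting dendritic cells, which had 11.7 FPKM in Jersey and was listed at 0 in Holstein and Cholistani. ACKR1 and ACKR4, which bind chemokines without G protein signalling, were listed at 0 in all 3 libraries. Of 16 other chemoattractant receptors 8 were matched and 7 were above 0. By 2-fold or more, 1 of the 7 was higher in Cholistani over Holstein and 0 were lower, beside 19.7% and 13.7% of all models. The higher one was HRH4, a histamine receptor, with 11.9, 15.8 and 43.7 FPKM in the Holstein, Jersey and Cholistani pools. GPR183, which positions B cells in lymphoid follicles, had 883, 1038 and 697 FPKM. Of the sphingosine phosphate receptors, S1PR1, by which lymphocytes leave lymph nodes, had 581, 715 and 481 FPKM. S1PR4 had 516, 521 and 408 FPKM and S1PR5 had 168, 171 and 213 FPKM, and all of these receptors were within 2-fold. At equal FPKM sums GPR183 and S1PR4 were lower in Cholistani than in Holstein, with log2 ratios of -1.02 and -1.01. Against Jersey GPR183 and S1PR1 then reached -1.17 each and HRH4 came within 2-fold, at 0.83.

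Most genes of the machinery that carries the receptors' signal were within 2-fold on the deposited scale. Of 27 matched genes of G protein signalling, receptor desensitization and cell polarity, 3 were higher by 2-fold or more in Cholistani over Holstein, 0 were lower and 24 were neither (median log2 ratio 0.13, against 0.15 for all models). The shares of all models were 19.7% higher and 13.7% lower. At equal FPKM sums 2 of the 27 genes were higher and 5 lower, beside 11.6% and 27.5% of all models, and the median of the 27 was -0.55. Their median was also below 0 on the other scales tried, at -0.05 centred on the median model and -0.16 scaled to T and B cell markers. The small GTPases that drive movement were the most abundant, with 3520 FPKM in the Holstein pool, 2913 in the Jersey pool and 3262 in the Cholistani pool for RAC1, 3145, 3172 and 4213 for RAC2 and 2113, 2205 and 2679 for CDC42. The higher genes were RGS2, which shortens G protein signals (175, 135 and 582 FPKM), RGS16 of the same family (3.48 FPKM in Holstein, listed at 0 in Jersey, 13.9 in Cholistani) and RASGRP2, which activates the integrin switch RAP1 (1036, 1232 and 2240 FPKM). RASGRP2 was within 2-fold of Jersey (log2 ratio 0.86), and on the 3 other scales it was within 2-fold of Holstein too (0.43 to 0.93).

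Genes of adhesion and migration were matched for 7 of 17, of which 2 were higher in Cholistani than in Holstein and 0 lower (median 0.64). Beside them, 19.7% of all models were higher and 13.7% lower. ICAM1, the endothelial and leukocyte ligand of beta 2 integrins, had 22.7 FPKM in the Holstein pool, 23.2 in the Jersey pool and 168 in the Cholistani pool. CORO1A, an actin regulator of leukocytes, had 7638, 7842 and 16310 FPKM, a difference that fell within 2-fold on the 3 other scales. At equal FPKM sums the median of these 7 genes was -0.03 and 1 gene, PECAM1, was lower in Cholistani than in Holstein (-1.05), beside 27.5% of all models.

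Markers of the cell types that carry these receptors were present in all 3 libraries, which fits the leukocyte label. In bulk RNA, fewer cells of a type and less RNA per cell cannot be told apart. For neutrophils, 10 of 14 markers were matched, their summed level was 37628 FPKM in the Holstein pool, 29590 in the Jersey pool and 32454 in the Cholistani pool, and 0 were at 0 in Holstein and Cholistani and 3 in Jersey. S100A12 had 17413, 12184 and 13418 FPKM and S100A8 11065, 9500 and 7767 FPKM. CSF3R, the growth factor receptor of neutrophils, differed from them with 657, 532 and 1976 FPKM. The ratio of CXCR2 to the geometric mean of the 7 neutrophil markers above 0 in all libraries was 0.0210 in the Holstein pool, 0.00595 in the Jersey pool and 0.331 in the Cholistani pool. The S100 genes make up most of the sum, and the geometric mean of those 7 markers was highest in Cholistani (1598, 1280.3 and 1806 FPKM). Of the 10 markers, 2 were higher by 2-fold or more in Cholistani over Holstein, CSF3R and ALPL (log2 ratio 2.47, with ALPL listed at 0 in Jersey), and 4 over Jersey, 3 of them listed at 0 in Jersey. The shares of all models were 19.7% over Holstein, near that of the markers, and 17.2% over Jersey. The part of the neutrophil markers in the level of CXCR2 was not tested.

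For monocytes, 7 of 11 markers were matched and none was at 0, with sums of 3657, 2722 and 3224 FPKM in the Holstein, Jersey and Cholistani pools. MPEG1 had 2207, 1719 and 1481 FPKM and CD14 342, 237 and 398 FPKM. The ratio of CCR2 to the geometric mean of the monocyte markers was 1.39 in Holstein, 1.40 in Jersey and 0.263 in Cholistani, and that of CX3CR1 was 2.48, 2.29 and 1.88. Of the 7 markers, 4 were below Holstein in Cholistani (median log2 ratio -0.17) and 3 were above, of which TLR4 was past 2-fold (130, 119 and 312 FPKM). Their part in the level of CCR2 was not tested.

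The summed lymphocyte markers were highest in Cholistani, but not all single markers were. The 8 matched T cell markers of 13 summed to 5853, 5867 and 10989 FPKM, with the highest means for CD3E (2041, 2127 and 6016 FPKM) and CD3G (1016, 1072 and 1280 FPKM), and the 7 matched B cell markers of 11 to 9649, 12288 and 19965 FPKM, led by CD79A (5281, 6190 and 14273 FPKM). CD79A carried the B cell sum, and 4 of the 7 B cell markers were highest in Jersey, as was their geometric mean (893, 1198 and 1117 FPKM). Of the T cell markers 6 of 8 were highest in Cholistani, and IL7R, the interleukin 7 receptor of naive and memory T cells, was lower in Cholistani (360.4, 308 and 81.4 FPKM). The ratio of CCR7 to the geometric mean of the T cell markers was 1.03, 1.18 and 0.663, and that of CXCR4 was 0.673, 0.696 and 2.91. The 5 matched natural killer and cytotoxic markers of 9 summed to 1099, 847 and 3580 FPKM, with NCR1 at 700, 502 and 1594 FPKM and NKG7 at 275, 219 and 1386 FPKM, while GZMA was listed at 0 in Cholistani. CXCR3 and CX3CR1, which such cells carry, stayed within 2-fold.

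Platelet and red cell markers, which leukocyte preparations can retain, differed as well. The 6 matched platelet markers of 8, of which PPBP is also a ligand above, summed to 5586, 4195 and 1517 FPKM, of which TUBB1 made up most (4430, 2997 and 551 FPKM). Between Cholistani and Holstein 2 platelet markers were higher, GP9 (84.5, 104 and 190.0 FPKM) and CLEC1B (21.9, 23.4 and 47.2 FPKM), and 2 were lower, TUBB1 and TREML1 (155, 80.8 and 45.5 FPKM). Beside them, 19.7% of all models were higher and 13.7% lower. Of 7 red cell markers 4 were matched, with sums of 549, 385 and 102 FPKM, led by ALAS2 (536, 363 and 32.3 FPKM), and HBA had 0, 11.5 and 69.3 FPKM. Their part in the levels of the receptors was not tested.

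Gene models whose pattern over the 3 libraries was most like that of a receptor were sought for CXCR2, CXCR4 and CCR2, the receptors with the widest range, among 5818 named models with at least 50 FPKM in some library. Likeness was the Euclidean distance between values of log2(FPKM + 1) centred over the libraries, and 3 points describe a pattern only coarsely. Nearest to CXCR2 were DGAT2, an enzyme of triglyceride synthesis (distance 0.15, with 45.1, 12.1 and 808 FPKM in the Holstein, Jersey and Cholistani pools), the serine dehydratase model SDHL (0.23) and the cytokine gene IL1B (0.91, with 89.3, 51.4 and 1851 FPKM). The model A6YM52 lay at a distance of 1.56, and 13 of the named models were nearer. Nearest to CXCR4 were NCF1, a subunit of the phagocyte oxidase (0.03, with 415, 396 and 2092 FPKM), a locus of the small nuclear RNA U1 (0.08) and the ribosomal protein gene RPL23A (0.09). Nearest to CCR2 were a fetal beta globin model (HBBF, 0.11, with 156, 116 and 28.8 FPKM), the transcription factor gene KLF9 (0.13) and LTC4S, an enzyme of leukotriene synthesis (0.15, with 307, 258 and 67.9 FPKM).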

How the data were processed

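Leukocyte mRNA of pooled blood was sequenced as 1 library per breed. The authors aligned reads to btau4.0 with TopHat 1.0.14 and Bowtie 0.12.7, and assembled transcripts and estimated expression with Cufflinks 0.9.3. The deposited values are FPKM per gene model, to which the authors applied upper-quartile normalization and a correction of sequence bias. They were used as deposited. Listed starts were taken to count from 0, since 56.2% of 1177 named spans of 300 to 1500 bases are then multiples of 3, and 1 was added. The 5 models that lack an estimate were left out of ratios. Fragment numbers were not recovered from the FPKM.

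Ratios were computed in Python 3.11.15 with pandas 2.3.3. The computation was run on simulated data with planted changes larger than the 2-fold limit and a small assumed noise. That run left out models with low values and says nothing of the error of the real values. A gene on several models took the one with the highest mean FPKM, and models naming several genes were matched to none. The receptors, lists, markers and alternatives were chosen with earlier results of these data known. All receptors were named. Of each list the 3 most abundant genes and the 3 with the largest ratio between Cholistani and Holstein, with at least 10 FPKM, were named, and of each marker list the 2 most abundant. CSF3R, ALPL, TLR4, IL7R, GZMA, GP9, CLEC1B, TREML1 and PECAM1 were named after their values were seen. Some genes that this rule selects are not reported here.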

Additional observations from a re-analysis of the deposited data

How the results depend on the processing

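CXCR2 and CXCR4 stayed higher and CCR2 lower in Cholistani by 2-fold or more, against either taurine breed, under all alternatives run. Their log2 ratios of Cholistani to Holstein ranged from 3.06 to 4.15, 1.70 to 2.38 and -2.95 to -2.17, and those to Jersey from 3.91 to 6.28, 1.84 to 2.44 and -2.42 to -1.73. The alternatives were pseudocounts of 0.1 and 10, centring on the median model, scaling to equal FPKM sums or to T and B cell markers, summing the models of a gene, a minimum of 10 FPKM, a fold of 4 for the counts, and, chosen after seeing the data, A6YM52 in place of CXCR2 and leaving out CCR6 and CX3CR1, whose spans hold other genes. Summing and the minimum could not change the receptors, since each was on 1 model and reached 10 FPKM in a library. Leaving out CCR6 and CX3CR1 could not change the counts, since neither was past 2-fold on the deposited scale. With equal FPKM sums the number of receptors lower in Cholistani went from 1 to 2 against Holstein, with CCR7 at -1.04, and from 1 to 3 against Jersey, with CCR6 at -1.08 and CCR7 at -1.05. With a fold of 4, 0 receptors were lower in Cholistani than in Jersey. With A6YM52 in place of CXCR2, 0 were lower in Jersey than in Holstein. The remaining 83 of 87 counts and medians of the receptors stayed within 1.5 times, or on the same side of 2-fold. They include those that could not change. Among all models, equal sums changed those higher and lower in Cholistani than in Holstein from 3006 and 2099 to 1773 and 4199, and against Jersey from 2625 and 2177 to 1588 and 4004. Of 345 counts and medians of the other lists, 38 moved past these limits. Medians changed sign in 1 of 27 alternatives for the receptors (0.18 to -0.42 between Cholistani and Jersey, at equal sums). For the other lists they did so in 5 of 105, all of them signalling or adhesion genes on other scales. The 105 include medians past 2-fold. They also include the ligand median of 0.00 between Jersey and Holstein, which could not be counted as changing sign. No paired analysis was possible because each breed has 1 library. Without replicates or fragment counts, the low value of CXCR2 in Jersey has no known error.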
